A study of Mus musculus with 6 samples.

Results

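Genes of the nucleolus were followed in tissue, labelled liver, of mice bearing human tumors: Aatf, Ngdn and Nol10, whose proteins form one complex, and Ncl, Fbl, Npm1, Nop56, Nop58, Dkc1 and Polr1a. They were chosen by name and by role, and all 10 were found among the 56884 genes of the mouse count table and among the 18018 that were tested. The 6 bulk RNA libraries fall into siControl and siAATF groups of 3 each. All are labelled liver, whereas the study's methods speak of tumor as harvested and of tumor and the tissue around it as taken apart for histology, and which of these, or how much of each, went into a library is not given in the sources used here. Every animal was a male athymic BALB/c (nu/nu) mouse, 6 weeks old at implantation, with cells of the human hepatocellular carcinoma (HCC) line QGY-7703 placed in the liver. After 1 week, adeno-associated virus (AAV8) carrying the control siRNA, in mice labelled WT, or the siRNA against mouse Aatf, in mice labelled KD, was given by the tail vein, and the mice were kept for 3 more weeks. Both groups thus carried a tumor and a virus. The siRNAs stood under the TBG promoter, which works in hepatocytes, and the study describes the sequence against Aatf as mouse-specific. The human cells were thus not its intended targets, and in which cells it acted was not tested here.

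Ribosomes are built mainly in the nucleolus. RNA polymerase I copies the ribosomal RNA precursor there, and the small subunit processome, of which the AATF-NGDN-NOL10 complex is a component, folds and cuts it. Small nucleolar RNAs (snoRNAs) guide its chemical marking: box C/D snoRNAs work with fibrillarin (Fbl), Nop56 and Nop58, and H/ACA snoRNAs with dyskerin (Dkc1). Nucleolin (Ncl) binds the precursor early, and nucleophosmin (Npm1) organizes the outer, granular part of the nucleolus where large subunits mature. AATF is also known as a transcription cofactor that counters apoptosis.

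The members are joined to snoRNAs in their own genes as well. Of the 10, 4 held snoRNA genes within their bounds in the annotation of the mouse genome GRCm39, 13 in all, with 5 in Nop56, 4 in Nop58, 3 in Ncl and 1 in Dkc1. Below are 4 of them, shown because each is bound by one of the protein families measured here. In the box C/D RNAs, capitals mark box C (ATGATGA or GTGATGA, looked for in the first 25 bases) and box D (CTGA, in the last 20 bases), and in Snora75, an H/ACA RNA, the ACA that lies 3 bases before the end. Snord110 lies in Nop56 on the plus strand (chr2:130117426-130117493), Snord11 in Nop58 on the plus strand (chr1:59743949-59744032), and Snord82 (chr1:86283983-86284052) and Snora75 (chr1:86278891-86279023) in Ncl on the minus strand. None of the 13 shared a base with an exon of its host.
Snord110: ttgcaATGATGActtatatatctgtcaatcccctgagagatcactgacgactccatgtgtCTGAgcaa
Snord11: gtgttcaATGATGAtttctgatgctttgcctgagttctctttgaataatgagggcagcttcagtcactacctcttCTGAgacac
Snord82: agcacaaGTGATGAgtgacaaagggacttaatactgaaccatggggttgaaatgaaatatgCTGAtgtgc
Snora75: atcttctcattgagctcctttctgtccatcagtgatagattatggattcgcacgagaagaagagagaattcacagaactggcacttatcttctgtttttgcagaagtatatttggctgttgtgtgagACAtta

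These RNAs were hardly counted. At least 1 count in any library was found for 6 of the 13, the highest count was 5, and all 13 together reached 26 counts over the 6 libraries. Snord110, Snord11 and Snord82 were at 0 in every library, and Snora75 had counts only in siAATF, 1 in replicate 2 and 3 in replicate 3. A count of 0 still allows 3 counts, which as CPM (a count relative to the mouse total of its library) means 3.28 to 14.1 for siControl and 0.0705 to 0.253 for siAATF. Host messenger and intronic guide could therefore not be compared with counts this low. All 1507 snoRNA genes together held 1348 counts in siAATF replicate 1, the library with the most mouse counts.

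The groups differed strongly in what their libraries held, and each value below stands against that. Mouse genes received 213022 to 913584 counts in siControl and 11835898 to 42563694 in siAATF, and human genes made up 98.1% to 99.2% of the counts in siControl and 0.972% to 2.14% in siAATF. Of the mouse counts, mitochondrial genes took 4.04% to 10.5% in siControl and 20.8% to 56.1% in siAATF. Cell markers differed with the group, and their summed levels are given as CPM after the TMM scaling described below, not as shares of the mouse counts. All 9 hepatocyte markers found were higher in siAATF (2039 to 5764 CPM in siControl, 43070 to 93593 in siAATF). Of the markers of other cells, 7 of 8 for fibroblasts (8701 to 12758 against 342 to 534 CPM), 5 of 6 for endothelium (330 to 539 against 47.4 to 171), 6 of 7 for macrophages (1416 to 3973 against 92.2 to 260), 3 of 4 for neutrophils (87.5 to 1817 against 2.22 to 128) and 6 of 6 for dividing cells (140 to 233 against 5.25 to 30.3) were lower, and no marker moved the other way. Hepatocyte markers thus had lower summed levels in siControl than in siAATF, but none of them was at 0. The markers at 0 in any library were S100a8, Retnlg and Ccnb1, all in siAATF replicate 2. In such bulk samples, a smaller number of cells of one type and less RNA in each of them cannot be told apart. The part of this shift in the values that follow was not tested, nor was the part of human reads counted on mouse genes. The labels number the replicates 1 to 3 without naming the animals, so p-values measure the spread between these libraries.

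Aatf, the targeted gene, was not lower after TMM scaling (below) in the libraries labelled siAATF. The siControl libraries held 12, 1 and 23 of its reads, the siAATF libraries 384, 109 and 340. After scaling of the mouse counts by the trimmed mean of M values (TMM), its levels were 9.63, 2.42 and 12.8 CPM in siControl and 13.3, 22.0 and 18.9 CPM in siAATF. Every siAATF library lay above every siControl library, the nearest being 13.3 and 12.8 CPM, and the lowest value, 2.42 CPM, rested on 1 count. The log2 fold change of siAATF over siControl was 0.93 ± 0.47 (SE, n = 3 libraries per group, 95% interval −0.09 to 1.94), with an adjusted p of 0.152 in edgeR's quasi-likelihood test over all 18018 genes. The interval therefore held no fall of more than 0.09 on the log2 scale under this scaling, but the direction depended on the scaling: with mouse library size alone, the levels were 15.6 ± 10.3 CPM in siControl and 9.32 ± 0.36 CPM in siAATF (SD, n = 3) and the value was −0.92 (adjusted p = 0.174). The gene spans chr11:84313681-84404348 on the minus strand. Whether the counted reads cover the site that the siRNA targets was not tested. In what follows siAATF names the libraries labelled so, since Aatf passed the test in neither direction under any setting tried.

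Its promoter is shown because Aatf is the gene the virus was built to silence, and next to it that of Dkc1, the member that passed the test. Both are the 250 bases before the start in RefSeq (GRCm38.p6, an earlier build than that of the counts), at chr11:84513502-84513751 on the minus strand for Aatf and chrX:75095604-75095853 on the plus strand for Dkc1. Capitals mark 3 motifs searched on both strands: the E-box CACGTG, read by Myc and related factors, the ETS core CCGGAAG and the TATA box TATAAA, seen in Dkc1 as its reverse complement 189 bases before the start.
Aatf: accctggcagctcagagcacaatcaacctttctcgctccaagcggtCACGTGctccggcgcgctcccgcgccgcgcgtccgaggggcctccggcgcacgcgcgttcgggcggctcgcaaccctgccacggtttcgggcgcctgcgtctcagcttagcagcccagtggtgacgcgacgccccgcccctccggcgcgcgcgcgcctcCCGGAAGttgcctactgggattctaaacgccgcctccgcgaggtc
Dkc1: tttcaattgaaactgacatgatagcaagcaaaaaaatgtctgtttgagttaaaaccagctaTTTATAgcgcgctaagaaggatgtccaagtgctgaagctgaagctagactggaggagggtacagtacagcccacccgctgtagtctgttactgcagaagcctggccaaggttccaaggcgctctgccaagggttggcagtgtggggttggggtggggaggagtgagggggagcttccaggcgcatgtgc

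Of the 10 members, 8 had a promoter in the table, and Fbl and Npm1 had none. The E-box stood in 1 of the 8, 204 bases before the start of Aatf, against 6.02% of all 32851 promoters. The ETS core stood in 2 of the 8, 45 bases before the start of Aatf and 80 before that of Nol10, against 6.91% of all promoters. Among 98 other genes of ribosome biogenesis it stood in 35.7%, where the E-box stood in 9.18% and the TATA box in 7.14%. The TATA box stood in 1 of the 8 members, Dkc1, against 12.4% of all promoters. The Aatf window held 72.0% G and C, and the median of all promoters was 52.4%. A match of letters is not a binding site.

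**Figure D1:**
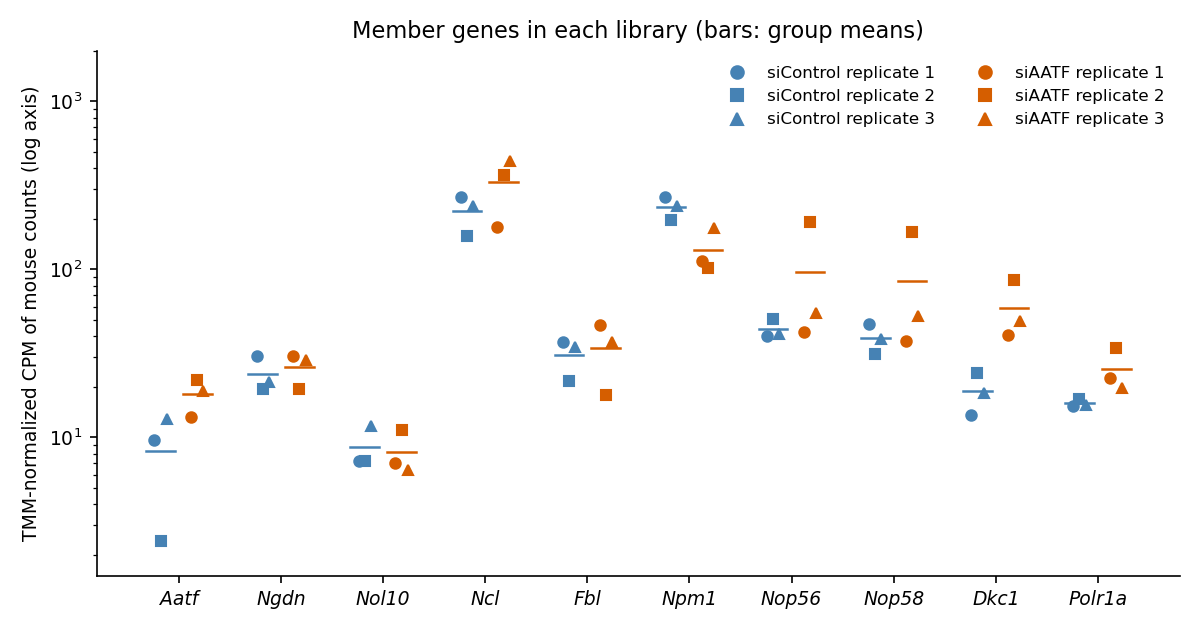
TMM-normalized CPM of mouse counts (log axis) for the 10 members in each of the 6 libraries, blue for siControl and orange for siAATF, with a shape for each replicate number and a bar for each group mean. The groups do not overlap for Aatf, Dkc1, Polr1a and Npm1, and the square of siAATF replicate 2 stands highest for Nop56 (191 CPM) and Nop58 (166 CPM).

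The partners of Aatf differed by less than the spread between libraries. Ngdn (neuroguidin), at chr14:55252911-55261594, had 30.5, 19.3 and 21.2 CPM in siControl and 30.5, 19.4 and 28.9 CPM in siAATF, and the groups overlapped fully (log2 fold change 0.13 ± 0.37, SE, adjusted p = 0.816). Nol10, a nucleolar protein with WD repeats at chr12:17398459-17480096, had 7.23, 7.25 and 11.7 CPM in siControl and 7.01, 11.1 and 6.38 CPM in siAATF (−0.17 ± 0.47, adjusted p = 0.811). Its siControl libraries held only 9, 3 and 21 counts, and the 95% interval of −1.18 to 0.84 leaves room for changes of that size in either direction. The ratio of Aatf to Nol10 within a library needs no scaling, and it was 1.33, 0.33 and 1.10 in siControl and 1.89, 1.98 and 2.96 in siAATF. The ratio was higher in every siAATF library, while that of Aatf to Ngdn overlapped between the groups. Of the 9 ratios of Aatf to other members, 2 were higher in every siAATF library, where 47.6% of the pairs of all tested genes did not overlap. The siControl replicate 2 ratio rests on 1 Aatf count and 3 Nol10 counts. With 3 libraries in each group the exact two-sided permutation test cannot give a p below 0.1, and over the 45 pairs of members the smallest adjusted p of this exact test was 0.346.

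Dkc1, at chrX:74139460-74153383, was the member that passed the test. Dyskerin is the enzyme that turns uridine into pseudouridine at sites chosen by H/ACA snoRNAs, and it also belongs to telomerase. Its levels were 13.6, 24.2 and 18.4 CPM in siControl and 40.9, 85.9 and 49.0 CPM in siAATF, from 10 to 33 and 426 to 1184 counts. All siAATF libraries lay above all siControl libraries, and the log2 fold change was 1.69 ± 0.42 (SE, 95% interval 0.77 to 2.61, adjusted p = 0.0087). Of its ratios to the other 9 members within a library, 4 were higher in every siAATF library, those to Ngdn, Nol10, Npm1 and Polr1a, and the other 5 overlapped between the groups, where 47.6% of the pairs of all tested genes did not overlap. The call was lost without siControl replicate 1 (1.49, adjusted p = 0.0529), without siControl replicate 3 (1.69, adjusted p = 0.0589) and with all libraries thinned to the smallest mouse total (1.30, adjusted p = 0.0765). With library size alone the value was −0.22. The last exon shares 45 bases with Mpp1 on the other strand, and whether counting used the strand is not stated. Mpp1 had 73, 10 and 56 counts in siControl, where Dkc1 had 17, 10 and 33, and 581, 32 and 425 counts in siAATF, where Dkc1 had 1184, 426 and 883.

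The box C/D proteins did not pass the test. Nop56 (chr2:130116350-130121233) stood at 40.1, 50.7 and 41.3 CPM in siControl and at 42.5, 191 and 54.6 CPM in siAATF, and Nop58 (chr1:59724136-59758203) at 47.4, 31.4 and 38.5 against 37.6, 166 and 53.0 CPM. For both, replicate 2 of siAATF stood far above the other 5 libraries, which overlapped. Their log2 fold changes were 1.13 ± 0.55 (adjusted p = 0.135) and 1.10 ± 0.53 (adjusted p = 0.137), and without siAATF replicate 2 they were 0.21 and 0.25. Fbl, the ribose methyltransferase of the same particle (chr7:27869135-27878694), did not share that peak: it had 36.9, 21.7 and 34.6 CPM in siControl and 46.8, 18.0 and 36.8 CPM in siAATF, with siAATF replicate 2 the lowest of all (0.09 ± 0.42, adjusted p = 0.892). The sign of the Fbl value turned under several other settings, and reads that match its pseudogene copies as well were discarded by the authors before counting.

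Npm1 and Ncl, the most abundant members by CPM, had fold changes of opposite sign, and neither passed the test. Npm1 (chr11:33102287-33113206) had 268, 196 and 239 CPM in siControl and 113, 102 and 175 CPM in siAATF, so that every siAATF library lay below every siControl library (log2 fold change −0.85 ± 0.41, SE, adjusted p = 0.139). It passed the test under 5 of 18 other settings: DESeq2 (−0.97, adjusted p = 0.0156), upper-quartile scaling (−1.15, adjusted p = 0.0373), library size alone (−2.66, adjusted p = 0.00056), 10 counts required in each library (−0.88, adjusted p = 0.0489) and the smallest common depth (−1.77, adjusted p = 0.0056). Ncl (chr1:86272441-86287122) had 270, 157 and 237 CPM in siControl and 180, 364 and 443 CPM in siAATF, and the groups overlapped (0.57 ± 0.48, adjusted p = 0.378). Polr1a, the catalytic subunit of RNA polymerase I (chr6:71886045-71959459), had 15.3, 16.9 and 15.6 CPM in siControl and 22.6, 34.1 and 19.7 CPM in siAATF, which did not overlap but did not pass the test (0.68 ± 0.38, adjusted p = 0.191).

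The ratio of Ncl to Npm1 was 1.01, 0.80 and 0.99 in siControl, so near-equal counts of the 2 messengers were found there. In siAATF it was 1.60, 3.55 and 2.53. No library of one group reached the other, and Npm1 was lower in every siAATF library relative to 8 of the other 9 members, Nol10 being the exception. Over the 45 pairs of members, the ratios of 13 (28.9%) did not overlap between the groups, against 47.6% of the pairs of all tested genes. A ratio within a library shows unequal change of the pair and not which of them changed.

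**Figure D2:**
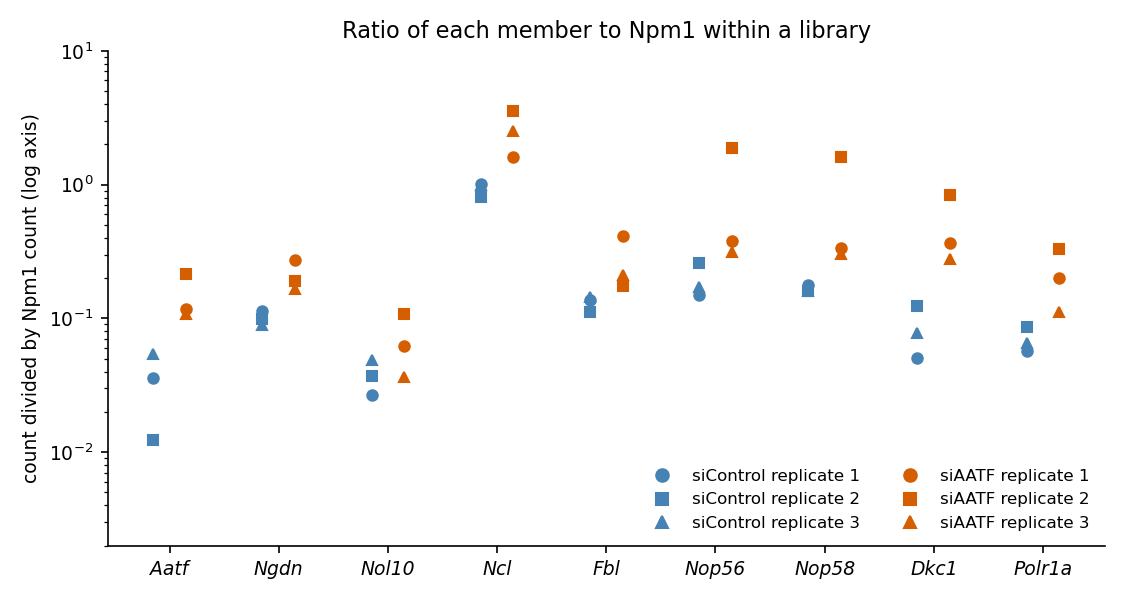
Count of each of the other 9 members divided by the count of Npm1 in the same library (log axis), blue for siControl and orange for siAATF, with a shape for each replicate number. The siAATF points lie above all siControl points for every gene but Nol10, and for Ncl they run from 1.60 to 3.55 against 0.80 to 1.01.

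As a whole, 1 of the 10 members was called at an adjusted p under 0.05, where 32.0% of all tested genes were (17.6% higher and 14.4% lower), and 45.4% of genes with a mean of at least 5 CPM. At an unadjusted p under 0.05 with a log2 change of at least 2 in size, the rule used in the study's methods, 0 of 10 members were called, against 26.7% of all genes. The groups did not overlap for 4 of 10 members, 3 higher and 1 lower, against 52.7% of all genes. Over all tested genes the log2 fold change had a median of 0.50, so the members were also read relative to it. On that scale Dkc1 stood at 1.19, Nop56 at 0.63, Nop58 at 0.60, Aatf at 0.42, Polr1a at 0.18, Ncl at 0.07, Ngdn at −0.37, Fbl at −0.41, Nol10 at −0.67 and Npm1 at −1.35. With library size alone the median moved to −1.30. Another scaling shifts nearly all genes alike, so values relative to the median change little by construction, and with library size alone only Ncl turned, to −0.01. Other kinds of setting turned more of them. Without siAATF replicate 2, Nop56 stood at −0.26 and Nop58 at −0.22. With no filter, Aatf stood at −0.13 and Polr1a at −0.38, and at the smallest common depth Ngdn stood at 0.05 and Nol10 at 0.29.

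**Figure D3:**
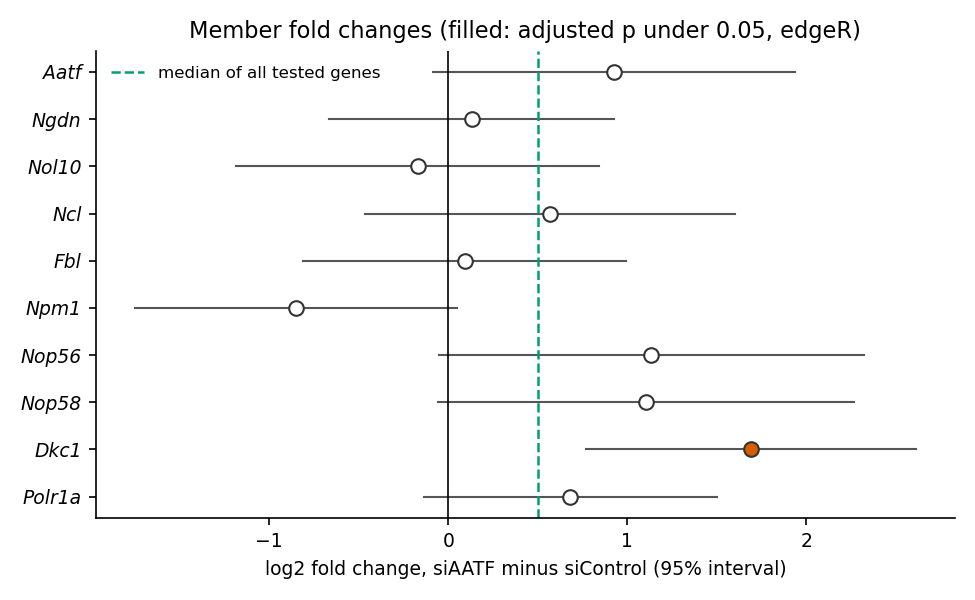
Fitted log2 fold change of siAATF over siControl (x axis) for each member with its 95% interval (line). The filled point, Dkc1 at 1.69, passed an adjusted p of 0.05 in edgeR, the other intervals cross 0, and the dashed line marks the median of all tested genes at 0.50.

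**Figure D4:**
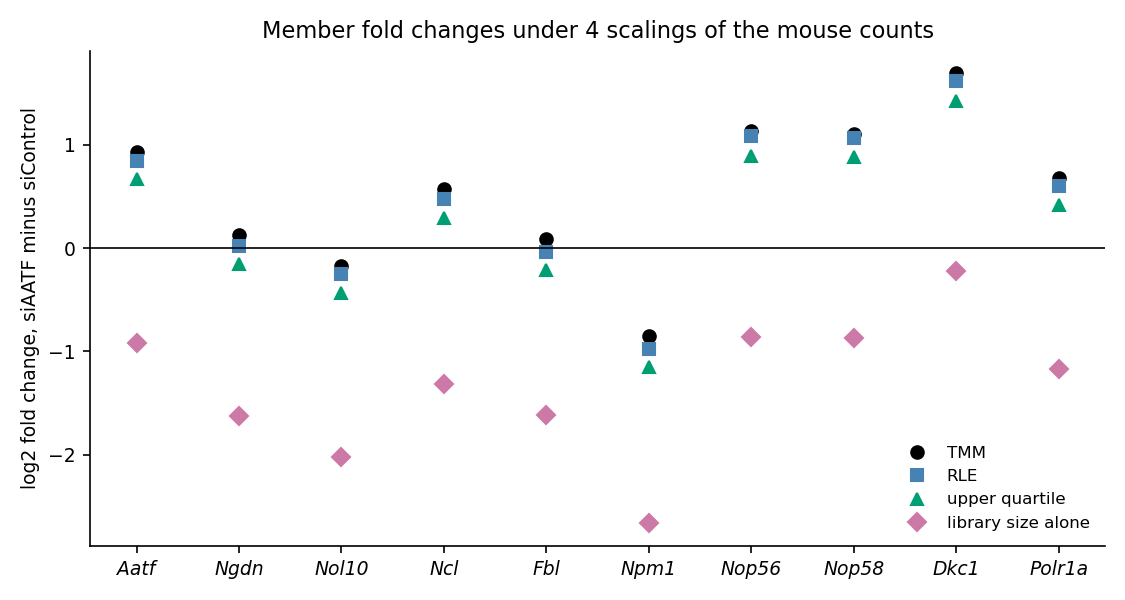
Log2 fold change of siAATF over siControl (y axis) for each member under TMM, RLE, upper-quartile and library-size scaling of the mouse counts. Library size alone places all 10 members below 0, from −0.22 for Dkc1 to −2.66 for Npm1, and since a scaling shifts all genes nearly alike, the order of the members changes little by construction.

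Levels were compared between genes per kilobase of exon. In siControl, Npm1 stood highest with 115 ± 18.0 CPM per kb (SD, n = 3), apart from all others. Ncl (27.0), Fbl (26.0), Nop56 (23.1) and Ngdn (19.7 CPM per kb) followed with overlapping ranges between neighbours. Dkc1 (6.68), Aatf (4.55), Nop58 (4.10) and Nol10 (2.89) formed a lower run in which each neighbour overlapped the next, and Polr1a was lowest at 1.73 ± 0.09 CPM per kb. In siAATF, Npm1 (64.0 ± 19.4) overlapped with Nop56 (50.4 ± 43.3), and Dkc1 (20.9 ± 8.57 CPM per kb) now overlapped with Ngdn (21.9 ± 5.01) above it. Aatf (9.90 ± 2.43) and Nop58 (8.96 ± 7.34) overlapped, and so did Polr1a and Nol10 at the bottom. Order by this measure rests on the exon length, 1822 bases for Aatf and 9539 for Nop58. By CPM, mean Nop58 was above Aatf in siControl (39.1 against 8.29) and in siAATF (85.5 against 18.0).

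The genes most like Aatf over the 6 libraries, by the distance between profiles of log2(CPM + 1) among 11020 genes, were Tmem201, Irgq, Mettl6, Nufip1 and Terf2ip, at distances of 0.50 to 0.69. Nufip1, which helps to assemble box C/D particles, had 12.0, 2.42 and 10.6 CPM in siControl and 13.6, 16.1 and 14.8 CPM in siAATF. The 5 genes shared with Aatf the value of 2.42 CPM in siControl replicate 2, which is 1 count. Of the other members Nol10 came nearest, at rank 1236, and Ngdn at rank 3482, so neither partner was among the close ones. This measure weighs the level as well as the pattern.

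The other genes of the pathway were read from lists by role. Of 122 genes in 5 lists of ribosome biogenesis, 20 (16.4%) were called higher in siAATF and 0 lower, against 17.6% and 14.4% of all genes, with a median log2 fold change of 0.65 beside 0.50 for all genes. The counts in each direction depended on the setting, and the other settings were counted with partners outside the nucleolus included. On those 135 genes, 24 were called higher and 1 lower with TMM, and 9 higher and 3 lower with upper-quartile scaling. The latter made 8.89% beside 30.4% of all genes, and 2 of the higher and 1 of the lower were partners. At the smallest common depth 2 of 118 were called higher and 3 lower, in all 4.24% beside 32.4% of all genes. There 1 of the higher and 2 of the lower were partners. With library size alone, 60 of 135 were called lower and 1 higher, in all 45.2% beside 44.5% of all genes, of which 7276 were lower and 747 higher.

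Among RNA polymerase I and its factors, 2 of 15 rose (13.3%, beside 17.6% of all genes) and 0 fell. Without siControl replicate 1 or 3, 1 was called (6.67%, beside 25.8% and 18.8% of all genes). Polr1f, a subunit of the enzyme, went from 22.9 ± 7.01 to 84.5 ± 36.8 CPM (SD, n = 3 each, log2 fold change 1.92, adjusted p = 0.0057), and Ttf1, which ends transcription of ribosomal genes, from 11.8 ± 4.57 to 37.7 ± 26.7 CPM (1.76, adjusted p = 0.0251). In the list of snoRNP core and assembly factors, the direct company of Fbl, Nop56, Nop58 and Dkc1, 1 of 14 rose. It was Nop10, a partner of dyskerin in the H/ACA particle, with 14.5, 12.1 and 16.2 CPM in siControl and 70.2, 16.5 and 41.9 CPM in siAATF (1.56, adjusted p = 0.0327). Unlike Dkc1, Nop10 was lowest among the siAATF libraries in replicate 2, just above siControl. The median of this list was 0.13, below that of all genes, and the call of Nop10 was lost in each fit that left out a siControl library.

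Of the small subunit processome, to which the Aatf complex belongs, 8 of 41 rose (19.5%, beside 17.6% of all genes) and 0 fell, with a median of 0.66 beside 0.50 for all genes. Rcl1 went from 15.5 ± 8.86 to 63.3 ± 27.7 CPM (log2 fold change 1.98, adjusted p = 0.0078) and Pdcd11 from 18.0 ± 1.34 to 53.9 ± 30.1 CPM (1.56, adjusted p = 0.0173). Of large subunit assembly, 6 of 41 rose (14.6%) and 0 fell, with a median of 0.71. Las1l, part of an enzyme that cuts the second internal spacer of the precursor, had 20.1, 0 and 14.5 CPM in siControl and 40.1, 59.1 and 54.0 CPM in siAATF (1.94, adjusted p = 0.0184), and Nop16 went from 13.0 ± 4.06 to 44.1 ± 6.41 CPM (1.81, adjusted p = 0.0038). Of 11 other nucleolar proteins, 3 rose (27.3%), Nol8 (1.60, adjusted p = 0.0350) and Nol12 (1.44, adjusted p = 0.0138) among them, with a median of 0.78. Leaving out siControl replicate 3 brought the processome from 8 calls to 0 and large subunit assembly from 6 to 1, and leaving out siControl replicate 2 brought them to 1 and 2. Without siControl replicate 1 the processome had 3 calls. The 3 calls of the other nucleolar proteins went to 1, 0 and 0 without siControl replicate 1, 2 and 3. Of all genes, 25.8%, 25.3% and 18.8% were called in these 3 fits, beside 32.0% with all libraries.

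AATF is reported to bind proteins outside the nucleolus too, and of 13 such genes 4 rose and 1 fell (38.5% called, beside 32.0% of all genes), with a median of 0.17. Without siControl replicate 2 or 3 the 5 calls went to 2 (15.4%, beside 25.3% and 18.8% of all genes). Among the rises was Esr1, an estrogen receptor, with 3, 0 and 9 counts in siControl and 645, 199 and 673 counts in siAATF (adjusted p = 0.0007). Rb1, the retinoblastoma protein that AATF is known to bind, fell by 1.54 ± 0.45 on the log2 scale, from 12.8, 19.3 and 15.6 CPM to 7.49, 4.44 and 3.88 CPM, with no overlap (adjusted p = 0.0197). This call was lost without siControl replicate 2, siControl replicate 3 or siAATF replicate 3. The cell markers differed between the groups beside these changes, by the values and counts given above, and their part was not tested.

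**Figure D5:**
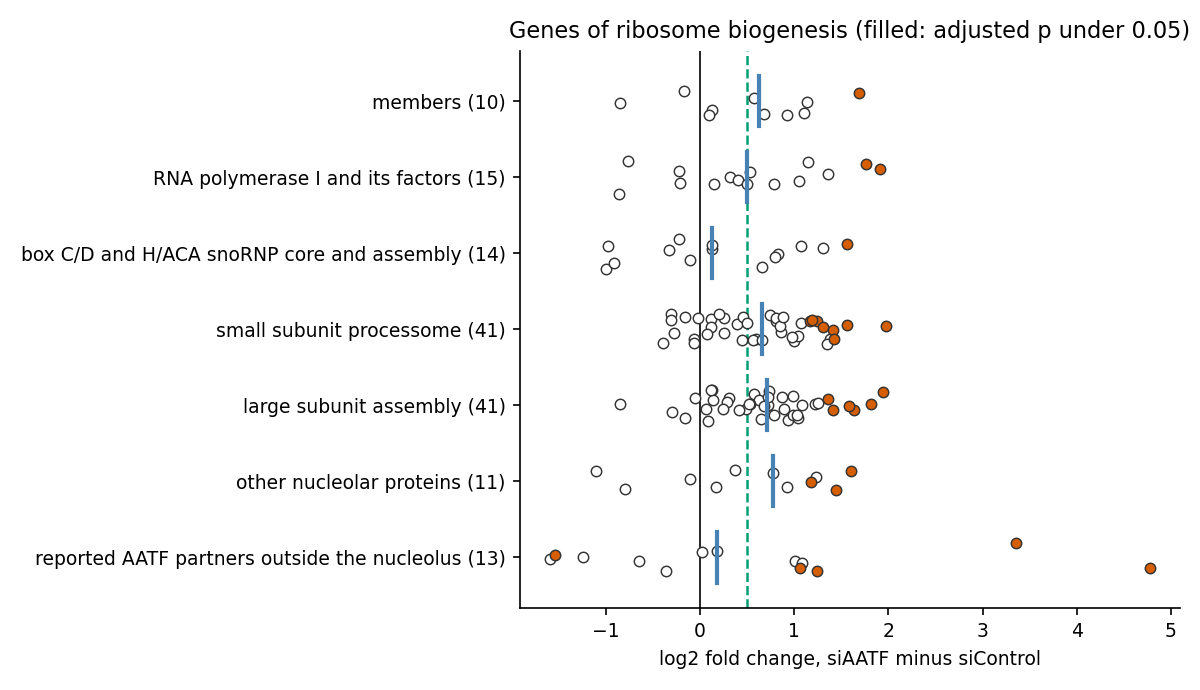
Log2 fold change of siAATF over siControl (x axis) for each gene of the members and of 6 lists, with the number of genes in brackets, filled where the adjusted p was under 0.05 in edgeR, a blue bar for each list's median and a dashed line for the median of all tested genes (0.50). The called genes lie to the right in the 5 lists of ribosome biogenesis, and Rb1, at −1.54, is the called gene on the left.

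One library stood above the rest of its group for much of what rose. Replicate 2 of siAATF, with the fewest mouse counts of its group and 56.1% of them mitochondrial, was the highest of the 3 siAATF libraries for 6 of 10 members and for 65 of 135 pathway genes (48.1%), beside 35.0% of all tested genes and 27.4% of those with a mean of at least 5 CPM. Among the 25 called pathway genes it was so for 18, but these were chosen by their difference, so that count is a description only. Without it and siControl replicate 2, the other library with the fewest counts of its group, Dkc1 was still called (1.45, adjusted p = 0.0176), and Nop56 stood at 0.23 and Nop58 at 0.06. In that fit 13 of 135 pathway genes were called, all higher (9.63%, beside 28.4% of all genes). Its mitochondrial share was the highest of the 6 libraries, and the part of that share in these values was not tested.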

How the data were processed

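Raw gene counts deposited by the authors were used as they stood, without normalization. The authors trimmed reads of SMART-Seq libraries with Cutadapt, aligned them with STAR (2.7.11) to the joined human and mouse (GRCm39) genomes, set aside multi-mapping reads and reads matching both species, and counted the rest with featureCounts (2.0.1). Versions are from the submitters' processing notes. Whether strand was used is not given in the sources used here.

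Mouse identifiers were named from gencode vM39 (56323 of 56884 matched). The human table pairs no identifiers with names, so human orthologs were not analysed here. Genes reaching 10 counts summed over the libraries were tested with edgeR 4.0.16 (R 4.3.3, TMM, group as the only term, Benjamini-Hochberg over all tested genes), which was checked on simulated counts. Alternatives used DESeq2 1.42.0 and limma 3.58.1. Ratios of 2 genes are printed from raw counts, and were tested and counted as not overlapping with 0.5 added to each count. Intervals and limits cover counting error and spread between libraries only, since PCR copies are not independent molecules.

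The members, lists and rules were chosen with earlier results of these data known. Named genes are the members, the 2 called genes with the largest rise and fall in each list with a mean of at least 5 CPM and groups that do not overlap, and the 5 genes nearest to Aatf. One gene that this rule names is not reported here. No 2 libraries of a group agreed within sampling noise (chi-square per degree of freedom 5.13 to 752).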

Additional observations from a re-analysis of the deposited data

How the results depend on the processing

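Of the 10 members, 1 was called, and the number was 2 with DESeq2, 2 with upper-quartile scaling, 5 (all lower) with library size alone, 2 of 5 tested where each library had to reach 10 counts, 3 with no filter, 0 with an unadjusted p and a log2 change of at least 2, and 0 to 3 with 1 library left out. Of the pathway genes, 25 were called, and 13 with limma-voom, 12 with upper-quartile scaling, 61 with library size alone, 7 of 32 tested under the same stricter count filter, 5 of 118 tested at the smallest common depth, 13 without replicate 2 of both groups (chosen after seeing the data), 2 with the unadjusted p, and 4 to 37 with 1 library left out. Of all genes, 5762 were called (3169 higher, 2593 lower), 1745 of 3552 under that filter (49.1%, beside 32.0%), 3139 of 9680 at the smallest common depth and 3333 to 6088 with 1 library left out. Library size alone gave 747 higher and 7276 lower, and upper-quartile scaling 2454 and 3023. The share of all genes called was 33.1% with DESeq2, 30.9% with limma-voom, 30.4% with upper-quartile scaling and 44.5% with library size alone. It was 25.4% with no filter, 32.4% at the smallest common depth and 28.4% without replicate 2 of both groups. With the unadjusted p it was 26.7%, and with 1 library left out 18.8% to 35.7%.

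With library size alone the sign turned for Aatf (−0.92), Ngdn (−1.62), Ncl (−1.32), Fbl (−1.62), Nop56 (−0.86), Nop58 (−0.87), Dkc1 (−0.22) and Polr1a (−1.17). With upper-quartile scaling it turned for Ngdn (−0.16) and Fbl (−0.21), and at the smallest common depth for Ngdn (−0.24), Nol10 (0.0030), Ncl (−0.27) and Fbl (−0.88). Fbl also turned with DESeq2 (−0.032), limma-voom (−0.096), RLE (−0.033) and filterByExpr (−0.046). With 1 library, or replicate 2 of both groups, left out, Nol10 ran from −0.54 to 0.15 and Fbl from −0.18 to 0.45. Apart from scaling and filters, whose construction changes the values, the cause was not tested. Npm1 kept its direction under every setting tried, from −2.66 to −0.65, and passed the test under 5 of 18. Nop56 and Nop58 passed with no filter and without siAATF replicate 1 or 3.

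The deviations of same-numbered libraries correlated at 0.15 and 0.41 for replicates 1 and 2 and at −0.13 for replicate 3 (3552 genes), so not every pair deviated together, and the numbers were not taken to pair the libraries. With a replicate block, 1 member, 34 pathway genes and 6766 of all genes were called. The siControl depth, down to 1 count for Aatf, also limits these results.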
